A study of Mus musculus with 36 samples.

Results

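The mitosis genes followed here are 43 genes whose products carry a cell from the end of G2 through division: the kinases and cyclins that start mitosis, the parts of the kinetochore and of the spindle checkpoint, the chromosomal passenger complex, the spindle motors and cytokinesis proteins, the factors that open anaphase, and a pair of proteins of the mitotic chromosome. They were chosen by name as a functional group, with earlier results of these data known, and not by a threshold on these data. All 43 were found among the 40354 genes counted in every one of the 36 RNA-seq libraries. By role, 9 act at entry into mitosis, 11 at the kinetochore and in the checkpoint, 4 in the chromosomal passenger complex, 13 in the spindle, its motors and cytokinesis, 4 in anaphase and mitotic exit, and 2 on the chromosome itself.

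Mitosis starts when cyclin-dependent kinase 1, encoded by Cdk1, is bound by a B-type cyclin and freed of its inhibitory phosphates by Cdc25 phosphatases. Kinetochores then attach chromosomes to the spindle while the checkpoint proteins restrain Cdc20, the activator of the ubiquitin ligase APC/C, until every chromosome is attached. Destruction of cyclin B and of securin then frees separase, sister chromatids part and the cell divides. Most of these genes are transcribed late in the cell cycle through promoter elements called CHR and CCAAT, which are bound by DREAM, MYB-MuvB with FOXM1, and NF-Y. Precursor B cells of bone marrow divide rapidly under interleukin 7, and macrophages usually divide little.

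The study asked how replacement of one arginine of the transcription factor C/EBPα changes the speed of B cell to macrophage transdifferentiation (BMT). B cells from the bone marrow of C57BL/6J mice were infected with a C/EBPα-ER-hCD4 retrovirus that carried wild-type C/EBPα, C/EBPα R35A, in which the arginine at position 35 is alanine, or C/EBPα R35K, in which it is lysine. The fused hormone-binding part of the estrogen receptor (ER) holds C/EBPα in the cytoplasm, estradiol (E2) releases it, and hCD4 marks infected cells. Each construct was sampled before induction (0 hpi), at 1, 3 and 6 hours post induction (hpi), and again at 18 and 120 hpi, with 2 replicates in each of the 18 groups. All groups, those at 0 hpi included, carried the virus, had been enriched for hCD4 and grew on mitomycin-C-treated embryonic fibroblast feeders, whose division is blocked. The feeders were taken off by adherence before RNA was extracted. The labels give B-cells as the cell type at the start and macrophages at 120 hpi, and they give neither the age nor the sex of the mice. The factor is driven by a retrovirus, so its level is not that of an endogenous gene, and the study's methods call the replicates biological without saying whether they came from different mice.

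Each library held between 13044456 and 23131776 counted reads, and the lowest count of any member in any library was 42, with a median of 544.5. Between the 2 replicates of a group a member differed by a median of 4.18% of their mean, with 90% of the 774 differences under 12.1%. The cell type labels were checked against marker genes. The summed level of 8 B cell markers fell in wild-type cells to 8.97% of its 0 hpi value at 18 hpi and to 3.67% at 120 hpi, and that of 8 macrophage markers went from 55.1 to 20500 CPM (counts per 1e+06 counts) between 0 and 120 hpi. In R35A and R35K cells the B cell sum ended at 1.96% and 2.80% of its start, and the macrophage sum went from 52.3 to 30576 CPM and from 58.0 to 27504 CPM. Values of feeder markers are given with the comparisons of constructs.

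The promoters of the members were read first, because they show what these genes share beside their function. Windows of 300 bases, 250 before and 50 after the annotated start, were given in RefSeq (GRCm38.p6) for 35 of the 43 members. Not covered were Ccna2, Cdc25c, Aurkb, Kif20a, Tpx2, Dlgap5, Incenp and Foxm1. The 4 windows printed here are those of Kif11, the member whose change over the first hour differed most between R35A and wild-type cells, of Cdc20 and Cenpa, and of Pttg1, the member that did not fall. Each is on the strand of its gene, and capitals mark the CHR element and the CCAAT element. The CHR reads TTTGAA, or TTCAAA where it lies on the other strand. There CCAAT reads ATTGG.
Kif11, chr19:37376132-37376431, plus strand: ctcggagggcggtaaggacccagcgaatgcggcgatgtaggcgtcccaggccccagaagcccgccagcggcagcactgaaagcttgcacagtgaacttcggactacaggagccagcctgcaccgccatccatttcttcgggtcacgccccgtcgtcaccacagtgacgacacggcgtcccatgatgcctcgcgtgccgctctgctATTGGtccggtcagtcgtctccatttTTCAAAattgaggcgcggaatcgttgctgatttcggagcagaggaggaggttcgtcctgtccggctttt
Cdc20, chr4:118437294-118437593, minus strand: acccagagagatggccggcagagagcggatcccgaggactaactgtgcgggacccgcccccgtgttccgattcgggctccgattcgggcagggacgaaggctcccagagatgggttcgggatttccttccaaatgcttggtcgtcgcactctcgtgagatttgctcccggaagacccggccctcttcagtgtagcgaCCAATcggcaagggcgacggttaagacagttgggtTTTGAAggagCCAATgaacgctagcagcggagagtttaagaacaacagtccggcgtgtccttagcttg
Cenpa, chr5:30666636-30666935, plus strand: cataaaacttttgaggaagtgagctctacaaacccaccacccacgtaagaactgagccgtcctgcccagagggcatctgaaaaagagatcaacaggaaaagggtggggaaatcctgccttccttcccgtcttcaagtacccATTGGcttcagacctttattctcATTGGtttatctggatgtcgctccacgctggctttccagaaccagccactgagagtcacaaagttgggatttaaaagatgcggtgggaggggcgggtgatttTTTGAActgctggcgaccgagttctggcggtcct
Pttg1, chr11:43425932-43426231, minus strand: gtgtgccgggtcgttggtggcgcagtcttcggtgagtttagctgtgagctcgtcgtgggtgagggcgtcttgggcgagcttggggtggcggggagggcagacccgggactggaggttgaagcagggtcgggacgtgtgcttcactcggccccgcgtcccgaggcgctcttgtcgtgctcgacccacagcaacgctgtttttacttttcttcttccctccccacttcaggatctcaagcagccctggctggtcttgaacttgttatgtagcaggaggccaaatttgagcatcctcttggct
In Kif11, which encodes the kinesin that pushes spindle poles apart, CCAAT lies 45 bases and the CHR 19 bases before the start. In Cdc20 the CHR lies 18 bases before the start with CCAAT at 53 and 8 bases before it. In Cenpa, which encodes the histone H3 variant of centromeres, the CHR lies 16 bases after the start and CCAAT 109 and 86 bases before it. The Pttg1 window holds neither string of letters. In the GENCODE annotation this gene begins at base 43426251, so the whole window lies inside it and the letters before that start were not read. Of the 35 windows, 27 (77.1%) held TTTGAA or TTCGAA on either strand, against 19.4% of 27025 promoters of the same length. TTTGAA was in 25 of them (71.4%, against 4893 of the 27025 promoters), TTCGAA in 4 (11.4%, against 1.6%) and CCAAT in 27 (77.1%, against 37.9%). Both a CHR and CCAAT were in 24 (68.6%, against 7.7%), and 25 (71.4%, against 5.3%) held a CHR within 50 bases of the start. A match of letters is a description and not a binding site.

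Levels per length, with all exons of a gene in the GENCODE annotation joined, showed a wide range at the start. This length can exceed that of the transcript in the cells, so ranks between genes depend on it. In wild-type cells at 0 hpi Mki67, the antigen that coats mitotic chromosomes, was highest with 129 ± 4.29 CPM per kb (SD, n = 2). Top2a, which untangles DNA, followed with 87.5 ± 1.17 and Ccnb2, a B-type cyclin, with 66.4 ± 1.496 CPM per kb. The lowest members were Anln, which organises the contractile ring, with 4.04 and Cdc25c, a phosphatase that switches Cdk1 on, with 3.51 CPM per kb. Incenp (57.6 ± 0.0735) and Ccna2 (57.4 ± 1.22) were next to each other in this order and did not differ beyond their spread.

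At 0 hpi, before E2, R35A and wild-type cells did not pass the test for any member. A call asked for at least 1.5-fold and an adjusted p (Benjamini-Hochberg) no higher than 0.05 in edgeR's quasi-likelihood test, and no gene of 16988 was called (0% of all genes, 0 of 43 members). Neither DESeq2 nor limma called a member, and 5 had an unadjusted p under 0.05. The differences were small and mostly of one sign: 37 of 43 members were lower in R35A cells, with a median log2 difference of -0.06. In 29 members both R35A libraries lay below both wild-type libraries, where this held for 22.2% of all genes. For Bub1b, for instance, the R35A libraries held 154 and 158 CPM and the wild-type libraries 169 and 173 CPM. The comparisons of constructs below therefore use the change of each construct from its own 0 hpi beside the direct difference.

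In wild-type cells the group fell step by step. The median member stood at 70.7% (1 hpi), 62.2% (3 hpi), 48.5% (6 hpi), 15.7% (18 hpi) and 40.6% (120 hpi) of its starting level. Summed over the 43 genes, the level went from 5993 ± 75.3 CPM at 0 hpi to 4059 ± 1.36, 3503 ± 7.13, 2851 ± 37.9, 920 ± 12.7 and 2209 ± 20.4 CPM at the later timepoints (SD, n = 2). Called lower than the start were 9 members after 1 h (9.27% of all genes), 31 after 3 h (11.5%), 38 after 6 h (14.7%), 42 after 18 h (23.2%) and 37 after 120 h (40.2%). At 1 hpi 39 members were lower by adjusted p alone (26% of all genes), so most changes there passed the p but stayed under the 1.5-fold. The 9 called at 1 hpi were Ccna2, Cdc25b, Aurkb, Bub1, Bub1b, Top2a, Ube2c, Mki67 and Espl1. The median log2 change of the members was -0.48, -0.69, -1.06, -2.68 and -1.43 at the successive timepoints, where that of all genes was -0.01, -0.01, -0.01, 0.02 and -0.36. All changes of a construct are taken against the same 2 libraries at 0 hpi, and in bulk RNA fewer dividing cells and less RNA per dividing cell cannot be told apart.

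**Figure D1:**
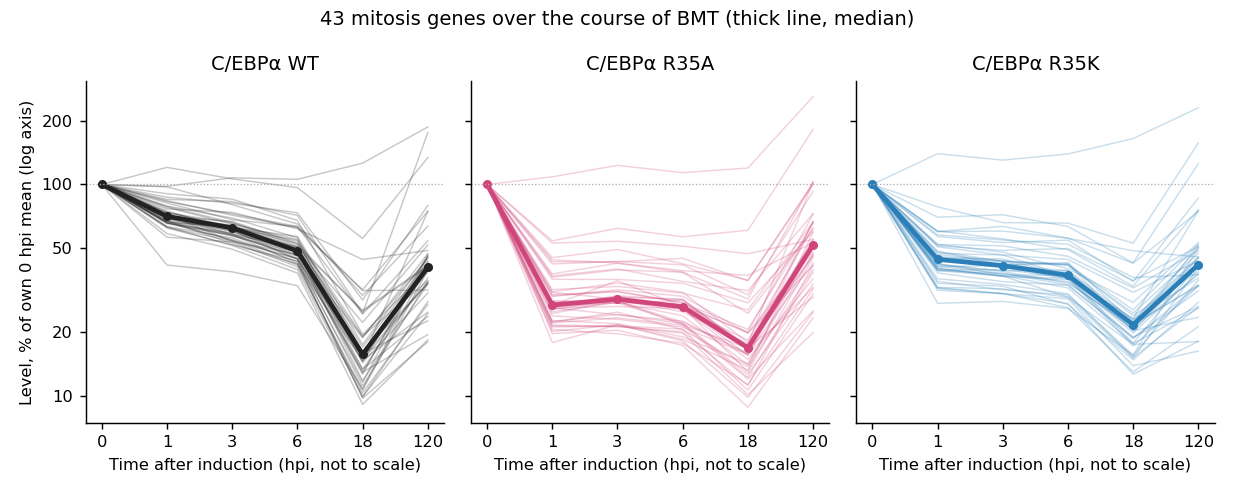
Level of each of the 43 mitosis genes (thin lines) and their median (thick line) as a percentage of the mean at 0 hpi of the same construct, on a log axis, over the 6 timepoints in C/EBPα WT, R35A and R35K cells (means of 2 libraries). The median at 1 hpi was 70.7% in WT, 44.2% in R35K and 26.8% in R35A cells, and it was lowest at 18 hpi in all 3 constructs.

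Between 6 and 18 hpi 41 members were called lower in wild-type cells (10% of all genes), with a median log2 change of -1.62 over this longer interval. Lowest of all at 18 hpi, relative to its start, was Ccna2, which encodes cyclin A2, at 9.08% of its 0 hpi level. For 42 of the 43 members 18 hpi was the lowest timepoint of the wild-type course, and the exception was Pttg1.

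The R35A course was different in the first hour. The median member stood at 26.8% (1 hpi), 28.6% (3 hpi), 26.3% (6 hpi), 16.8% (18 hpi) and 51.6% (120 hpi) of its starting level. The summed level went from 5694 ± 1.95 CPM to 1515 ± 17.6 CPM within 1 h, and was 1563 ± 7.21, 1419 ± 10.4, 951 ± 8.40 and 2444 ± 64.8 CPM afterwards (SD, n = 2). Called lower than the start were 42 members after 1 h (18.9% of all genes), 42 after 3 h (19%), 42 after 6 h (19.2%), 42 after 18 h (21.6%) and 35 after 120 h (39%). Between 6 and 18 hpi 20 members were called lower (2.76% of all genes), with a median log2 change of -0.51. The level of R35A cells at 1 hpi lay between those of wild-type cells at 6 and at 18 hpi for 42 of 43 members, and above the wild-type level at 1 hpi for Pttg1.

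R35K cells, whose libraries come from tables of their own, had medians between those of the other constructs at 1, 3 and 6 hpi and above both at 18 hpi. The median member was at 44.2%, 41.3%, 37.1%, 21.7% and 41.8% of its starting level at the successive timepoints. Called lower were 40 members after 1 h (17.4% of all genes), 41 after 3 h (16.8%), 42 after 6 h (17.8%), 42 after 18 h (20.5%) and 36 after 120 h (38.5%). From 6 to 18 hpi 32 members were called lower (4.28% of all genes). At 1 hpi Cenpa, Anln and Pttg1 were not called.

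Compared with wild type at the same timepoint, R35A cells had 42 members lower at 1 hpi (10.8% of all genes), 41 at 3 hpi (9.04%) and 40 at 6 hpi (7.52%), with median log2 differences of -1.46, -1.17 and -0.96. In the change from 0 hpi, which takes out any difference at the start, 41 members were lower at 1 hpi (8.74% of all genes), 40 at 3 hpi (7.43%) and 39 at 6 hpi (5.99%), with medians of -1.38, -1.09 and -0.90. Of 12 feeder markers 1 was higher and none lower at 1 hpi in this comparison. At 3 and at 6 hpi 1 was higher and 4 were lower. The members not called at 1 hpi were Bub3, at log2 -0.58, just under the 1.5-fold, and Pttg1. With limma on the log2 values that the authors deposited, the share of higher among all called genes moved from 37.7% to 51.1% at 1 hpi, from 42.6% to 55.5% at 3 hpi and from 41.6% to 53.8% at 6 hpi, with the same counts of members lower.

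For R35K against wild type in the change from 0 hpi, 33 members were lower at 1 hpi (5.08% of all genes), 22 at 3 hpi (3.87%) and 6 at 6 hpi (4.53%), with median log2 differences of -0.69, -0.61 and -0.41. The 6 at 6 hpi were Ttk, Cenpf, Kif11, Nek2, Dlgap5 and Mki67, and this number was 3 without R35K 0 hpi replicate 2 and 11 without wild-type 6 hpi replicate 1. Of 12 feeder markers, 1, 4 and 9 were lower at 1, 3 and 6 hpi in this comparison, and 1 was higher at each. Their part in these results was not tested. R35K against R35A gave 27 members higher, that is less reduced, at 1 hpi (4.15% of all genes), 10 at 3 hpi (2.25%) and 12 at 6 hpi (4.69%), with medians of 0.64, 0.51 and 0.53. By adjusted p alone all 43 were higher at 1 hpi (13.1% of all genes). Of the feeder markers 2, 1 and 1 were lower at 1, 3 and 6 hpi against R35A, and none was higher. Under DESeq2's size factors the share of higher among all called genes was 58.5% and not 71.2% at 1 hpi, with 22 members higher, and 66.3% and not 79.6% at 6 hpi, with 7 members higher. The differences between constructs share libraries (the wild-type ones, or the R35A ones), so the counts are set side by side only.

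The order of the 3 constructs was the same for nearly every member. On a scale set over all 36 libraries, both R35A libraries lay below both R35K libraries and these below both wild-type libraries for 42 of 43 members at 1 hpi (13% of all genes), for 42 at 3 hpi (13.3%) and for 42 at 6 hpi (9.43%). These levels come from counts deposited in separate tables and put on one scale here, and they were not tested as levels. The size factors behind the deposited log2 values lay within 0.656% of factors computed over all 36 libraries.

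**Figure D2:**
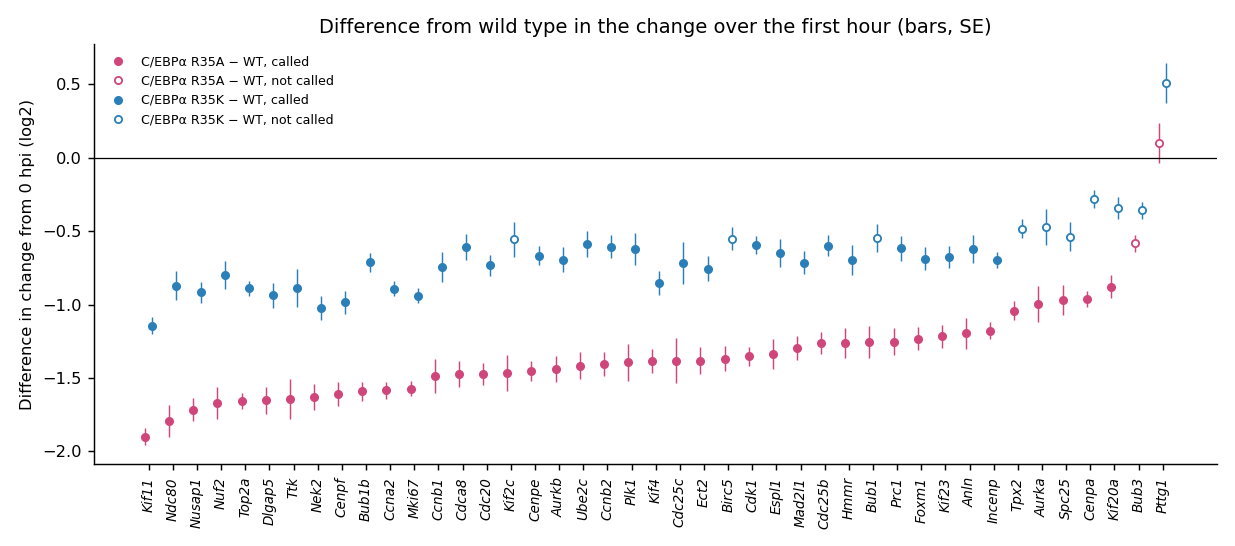
Difference from wild type in the log2 change from 0 to 1 hpi for each mitosis gene, R35A (pink) and R35K (blue), ordered by the R35A value, with bars for the SE of the fit (2 libraries a group) and open circles for differences that were not called. R35A values run from -1.90 for Kif11 to 0.10 for Pttg1, and 41 R35A and 33 R35K differences were called.

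Among the genes of entry into mitosis, all 9 were called lower in wild-type cells at 18 hpi, with a median log2 change of -2.77. Their fall over the first hour was larger in R35A and in R35K cells for 9 of 9 in each, with median log2 differences of -1.39 and -0.69. Cdk1, the kinase that drives mitosis, held 138 and 139 CPM (0 hpi) in the wild-type libraries, 109 and 108 (1 hpi), 90.3 and 92.0 (3 hpi), 72.1 and 68.9 (6 hpi), 31.6 and 29.7 (18 hpi) and 72.3 and 70.3 (120 hpi). In R35A cells its levels at the same timepoints were 137 and 138, 42.8 and 44.5, 43.7 and 46.7, 40.8 and 43.3, 36.6 and 33.3, and 88.0 and 94.9 CPM. In R35K cells they were 133 and 140.4, 72.2 and 70.2, 64.4 and 66.4, 53.3 and 55.8, 39.0 and 36.5, and 76.2 and 69.3 CPM. The groups did not overlap at 1, 3 or 6 hpi, with R35A lowest, and they were close together at 18 hpi. The R35A and wild-type changes over the first hour differed (log2 -1.35, SE 0.0649, edgeR adjusted p = 1.86e-23), as did the R35K and wild-type changes (log2 -0.59, SE 0.064, edgeR adjusted p = 3.08e-11).

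Ccnb1, the B-type cyclin that activates Cdk1, went in wild-type cells from 50.8 and 48.1 CPM (0 hpi) to 36.4 and 33.9 (1 hpi), 7.34 and 7.24 (18 hpi) and 11.8 and 12.7 CPM (120 hpi). At the same timepoints the R35A libraries held 48.0 and 45.6, 13.1 and 11.2, 7.70 and 6.19, and 15.4 and 18.12 CPM. Its first-hour difference between R35A and wild-type cells was called (log2 -1.49, SE 0.114, edgeR adjusted p = 1.03e-15). Ccna2, cyclin A2, went from 231 and 238 to 137 and 138 CPM in wild-type and from 213 and 215 to 42.9 and 43.2 CPM in R35A cells within the first hour. Cdc25b, a Cdk1-activating phosphatase, had the lowest level relative to its start at 1 hpi in each construct: 149 and 149 CPM became 63.8 and 59.7 in wild-type, 140.2 and 142 became 24.8 and 25.6 in R35A, and 150.4 and 153 became 40.8 and 42.4 CPM in R35K cells. In wild-type cells 41.5% of its starting level was left after 1 hour, and the next lowest member, Aurkb, stood at 56.3%.

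Plk1, a kinase of spindle assembly and mitotic entry, was at 35.8 and 33.7 CPM (0 hpi) in wild-type cells, 25.2 and 22.5 (1 hpi), 7.02 and 6.02 (18 hpi) and 17.4 and 15.3 (120 hpi). In R35A cells these levels were 32.6 and 32.2, 8.31 and 9.07, 6.87 and 6.09, and 22.9 and 23.96 CPM. The R35A libraries were far below the wild-type ones at 1 hpi (log2 -1.39, SE 0.124, edgeR adjusted p = 1.7e-13 for the difference in change) and above them at 120 hpi. Foxm1, the transcription factor of late cell cycle genes, itself fell: wild-type libraries held 104 and 109, 70.8 and 71.7, 20.1 and 20.7, and 36.8 and 37.8 CPM at 0, 1, 18 and 120 hpi, and R35A libraries 97.0 and 106, 29.6 and 30.4, 20.7 and 19.5, and 43.9 and 39.9 CPM. Its first-hour difference between R35A and wild-type cells was log2 -1.23, the smallest of the 9 genes of mitotic entry. The rest of these, Ccnb2, Cdc25c and Nek2, gave log2 -1.40, -1.38 and -1.63, all called.

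**Figure D3:**
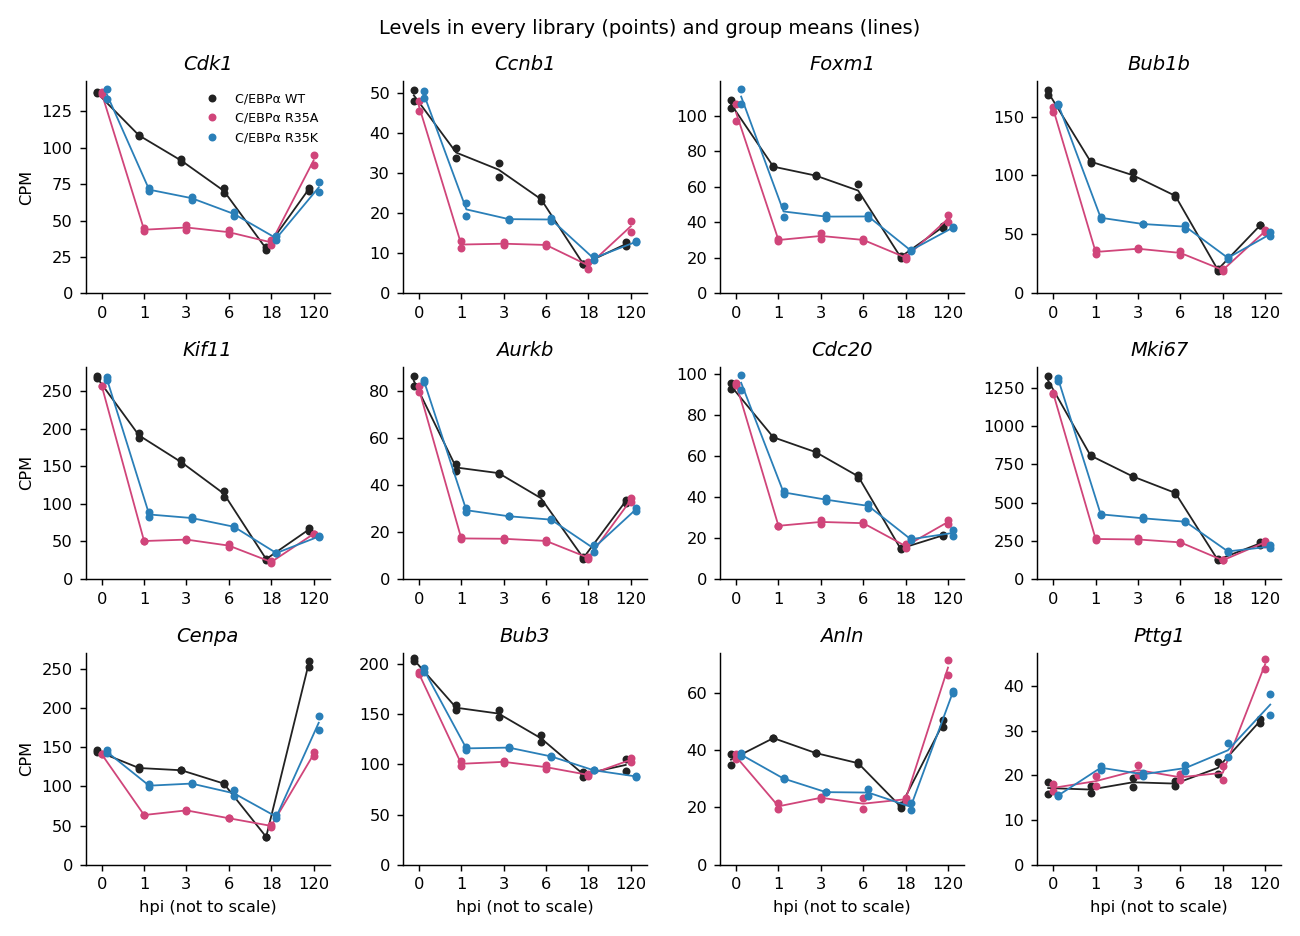
CPM of 12 mitosis genes in every library (points, 2 per group) with group means (lines) against time after induction, not to scale, in C/EBPα WT (black), R35A (pink) and R35K (blue) cells. In Cdk1, Kif11 and most others the points of the 3 constructs separate at 1 hpi with R35A lowest and draw together at 18 hpi, while Pttg1 does not fall and is highest at 120 hpi.

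Of the 11 kinetochore and checkpoint genes, all 11 fell in wild-type cells by 18 hpi (median log2 change -2.72), and 10 fell more in R35A cells over the first hour (median log2 difference -1.45). In R35K cells 7 of them did (-0.71). Bub1b, which encodes the checkpoint protein BubR1, held 113 and 111 CPM in wild-type, 65.2 and 63.0 in R35K and 33.1 and 37.0 in R35A libraries at 1 hpi, and 21.0 and 19.2, 28.9 and 31.2, and 20.2 and 19.2 CPM (18 hpi). Ndc80, the microtubule-binding arm of the kinetochore, went from 56.5 and 55.1 to 43.9 and 39.8 CPM in wild-type and from 56.8 and 58.6 to 12.8 and 12.9 CPM in R35A cells in the first hour. It had the second largest first-hour difference of all members (log2 -1.79, SE 0.107, edgeR adjusted p = 8.7e-20). Bub3, a partner of Bub1 and BubR1 that also has roles outside mitosis, had the smallest fall at 18 hpi among the members called in wild-type cells except Anln: wild-type libraries held 203 and 206 CPM (0 hpi), 154 and 159 (1 hpi), 92.6 and 87.8 (18 hpi) and 105 and 93.8 (120 hpi). In R35A libraries the same timepoints gave 189.7 and 192, 98.2 and 103, 88.5 and 90.7, and 107 and 103 CPM. It was not called between 18 and 120 hpi in wild-type cells (log2 0.02), and in R35K cells it was lowest at 120 hpi.

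The other kinetochore and checkpoint genes followed Bub1b and Ndc80. Wild-type changes at 18 hpi and R35A first-hour differences were log2 -2.79 and -1.26 for Bub1, a checkpoint kinase, and -2.72 and -1.64 for Ttk, the kinase that starts checkpoint signalling. For Mad2l1, whose product binds and holds Cdc20, they were -2.40 and -1.30. Cenpe, a kinetochore motor, gave -2.52 and -1.45, and Cenpf, a large kinetochore protein, -2.81 and -1.61. Nuf2 and Spc25, which form the Ndc80 complex with Ndc80 and Spc24, gave -2.96 and -1.67, and -1.67 and -0.97. All of these 14 values were called, and Spc25 had the smallest change of these 7 genes in both comparisons.

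Cenpa stood apart at the end of the course. Wild-type libraries held 144 and 147 CPM (0 hpi), 124 and 123 (1 hpi), 120.4 and 121 (3 hpi), 104 and 103 (6 hpi), 35.9 and 35.4 (18 hpi) and 252 and 259.8 (120 hpi). R35A libraries held 141 and 141, 64.1 and 63.0, 69.7 and 69.2, 59.4 and 59.4, 48.2 and 51.1, and 139 and 143 CPM at these timepoints. R35K libraries held 146 and 142, 98.9 and 103, 104 and 103, 87.4 and 95.1, 59.3 and 63.4, and 172 and 190.4 CPM. At 120 hpi the wild-type libraries were above their start, the R35A libraries were near it and the R35K libraries lay between. Per length of joined exons Cenpa went from the 17th place among the members in wild-type cells at 0 hpi, with 24.8 CPM per kb, to the 1st at 120 hpi, with 43.7 CPM per kb. The wild-type rise over 0 hpi was called (log2 0.69, SE 0.0367, edgeR adjusted p = 4.94e-23), as was the difference between R35A and wild type at 120 hpi (log2 -0.85, SE 0.0373, edgeR adjusted p = 2.22e-25). Scaling by total counts alone left the wild-type rise short of the 1.5-fold.

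The 4 genes of the chromosomal passenger complex, which corrects wrong attachments and guides cytokinesis, all fell by 18 hpi in wild-type cells (median log2 change -2.83) and fell more in R35A cells over the first hour (4 of 4, median log2 difference -1.40), and 3 of 4 did so in R35K cells (-0.65). Aurkb, its kinase, held 82.5 and 86.6 CPM (0 hpi) in wild-type cells, 48.9 and 46.2 (1 hpi), 9.31 and 8.62 (18 hpi) and 33.9 and 32.6 (120 hpi). In R35A cells it held 79.8 and 82.1, 16.9 and 17.7, 8.66 and 9.41, and 32.7 and 34.7 CPM. The R35A libraries at 1 hpi lay far below the wild-type libraries, while both constructs gave nearly the same values at 18 and at 120 hpi. Birc5, which encodes survivin, went from 83.5 and 88.2 to 57.8 and 56.8 CPM in wild-type, from 86.5 and 82.4 to 39.1 and 37.9 in R35K and from 83.8 and 83.6 to 21.5 and 23.2 CPM in R35A cells within 1 hour. The first-hour difference from wild type was called for R35A (log2 -1.37, SE 0.0851, edgeR adjusted p = 4.52e-19) and not for R35K (log2 -0.55, SE 0.0796, edgeR adjusted p = 8.95e-08), whose value was just under the 1.5-fold. Incenp, the scaffold of the complex, and Cdca8, which encodes borealin, had first-hour differences of log2 -1.18 and -1.47 for R35A and -0.69 and -0.61 for R35K, all called.

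The 13 genes of the spindle, its motors and cytokinesis all fell in wild-type cells by 18 hpi, with a median log2 change of -2.04, and none of them was called at 1 hpi. All 13 fell more in R35A cells over the first hour (median log2 difference -1.26), and 9 in R35K cells (-0.68). Kif11 held 269.7 and 267 CPM (0 hpi) in wild-type cells, 188 and 194 (1 hpi), 153 and 158 (3 hpi), 109.6 and 117 (6 hpi), 25.9 and 27.1 (18 hpi) and 67.4 and 63.6 (120 hpi). In R35A cells the values were 257 and 257, 50.6 and 50.4, 52.8 and 52.1, 42.8 and 46.0, 24.1 and 21.2, and 60.2 and 59.8 CPM. In R35K cells they were 265 and 268, 89.2 and 82.4, 82.1 and 80.1, 68.1 and 70.9, 34.4 and 34.6, and 56.4 and 56.5 CPM. One hour of R35A took Kif11 to a level that wild-type cells reached after 6 hpi. Its first-hour difference was the largest of all members for R35A (log2 -1.90, SE 0.0584, edgeR adjusted p = 2.61e-31) and for R35K (log2 -1.15, SE 0.0568, edgeR adjusted p = 7.89e-24).

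Nusap1, a protein that bundles spindle microtubules, had the third largest first-hour difference (log2 -1.72, SE 0.0763, edgeR adjusted p = 8.16e-25), with 90.5 and 94.9 CPM in wild-type and 28.6 and 28.1 CPM in R35A libraries at 1 hpi. Kif20a, a kinesin of the central spindle, had the smallest of the 41 called: its libraries held 79.5 and 79.3 and then 52.0 and 52.4 CPM in wild-type cells at 0 and 1 hpi, against 73.2 and 75.3 and then 27.4 and 27.4 CPM in R35A cells (log2 -0.88). Anln moved the other way in wild-type cells at first. It held 38.7 and 34.6 CPM (0 hpi), 44.1 and 44.2 (1 hpi), 19.6 and 21.0 (18 hpi) and 50.4 and 47.9 (120 hpi) in wild-type cells, and 38.5 and 36.8, 21.4 and 19.3, 23.3 and 22.4, and 66.1 and 71.4 CPM in R35A cells. At 1 hpi its wild-type change was log2 0.29 and below the 1.5-fold, and it was the only member higher by adjusted p alone. The difference between R35A and wild-type cells over the first hour was called (log2 -1.20, SE 0.104, edgeR adjusted p = 6.35e-14).

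The remaining spindle genes lay between Kif20a and Kif11. Their R35A first-hour differences were log2 -1.65 for Dlgap5, -1.47 for Kif2c, a kinesin that takes microtubules apart, -1.38 for Kif4, a chromosome-borne kinesin, and -1.22 for Kif23, of the central spindle. Ect2, which switches on RhoA at the cleavage site, and Prc1, which cross-links the midzone, gave -1.38 and -1.25. Hmmr, a microtubule-associated protein of the poles, gave -1.26, and Aurka, the kinase of centrosomes, and its activator Tpx2 gave -0.99 and -1.04. The R35K differences of Aurka, Kif20a, Kif2c and Tpx2 were not called, at log2 -0.47, -0.34, -0.56 and -0.48.

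Of the 4 genes of anaphase and mitotic exit, Cdc20, Ube2c and Espl1 fell in wild-type cells by 18 hpi and fell more in R35A and in R35K cells over the first hour. Cdc20 held 92.9 and 95.9, 68.9 and 69.7, 14.67 and 15.1, and 21.8 and 20.9 CPM at 0, 1, 18 and 120 hpi in wild-type cells and 95.8 and 95.0, 26.2 and 25.9, 17.0 and 15.2, and 27.1 and 28.7 CPM in R35A cells. Ube2c, the ubiquitin-conjugating enzyme of the APC/C, held 75.6 and 78.6, 48.5 and 48.9, 8.74 and 9.03, and 37.0 and 33.3 CPM in wild-type cells and 71.6 and 74.3, 18.18 and 17.5, 13.2 and 11.3, and 50.3 and 47.3 CPM in R35A cells at these timepoints. Both were at a much lower level in R35A than in wild-type libraries at 1 hpi, with no overlap, and Ube2c came back further than Cdc20 by 120 hpi.

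Pttg1, which encodes securin, the protein that holds separase (Espl1) in check, was the exception of the whole group. Wild-type libraries held 15.9 and 18.4 CPM (0 hpi), 16.0 and 17.6 (1 hpi), 17.4 and 19.5 (3 hpi), 17.7 and 18.7 (6 hpi), 23.0 and 20.4 (18 hpi) and 32.5 and 31.8 (120 hpi). R35A libraries held 18.0 and 16.4, 17.6 and 19.8, 20.0 and 22.4, 20.3 and 18.9, 19.0 and 22.2, and 46.0 and 43.8 CPM, and R35K libraries 15.4 and 15.6, 21.2 and 22.2, 19.9 and 20.6, 22.2 and 21.1, 27.2 and 24.04, and 38.2 and 33.5 CPM. It was not called lower at any timepoint of any construct, and its libraries at 120 hpi lay above all earlier ones in each construct. In R35K cells it was already called higher at 18 hpi, the only member in that direction (18.4% of all genes were). The rise at 120 hpi was called in wild-type (log2 0.78, SE 0.0959, edgeR adjusted p = 3.13e-10), R35A (log2 1.26, SE 0.0865, edgeR adjusted p = 9.6e-19) and R35K cells (log2 1.11, SE 0.084, edgeR adjusted p = 4.95e-14), and the wild-type call was lost when libraries were scaled by total counts alone.

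The RNA levels of both genes of chromosome proteins fell in every construct. Mki67 held 1266 and 1327 CPM (0 hpi) in wild-type cells, 813 and 801 (1 hpi), 129 and 123 (18 hpi) and 225 and 241 (120 hpi), and 1212 and 1215, 256 and 268, 123 and 122, and 232 and 249.9 CPM in R35A cells. Top2a held 781 and 796, 496 and 498, 78.3 and 77.6, and 209.9 and 229.7 CPM in wild-type cells and 762 and 730.0, 154 and 153, 85.2 and 83.0, and 229 and 249.8 CPM in R35A cells. For both, R35A libraries at 1 hpi were below wild-type libraries at 6 hpi, and the constructs differed little at 18 and 120 hpi. Their first-hour differences were log2 -1.57 and -1.66.

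**Figure D4:**
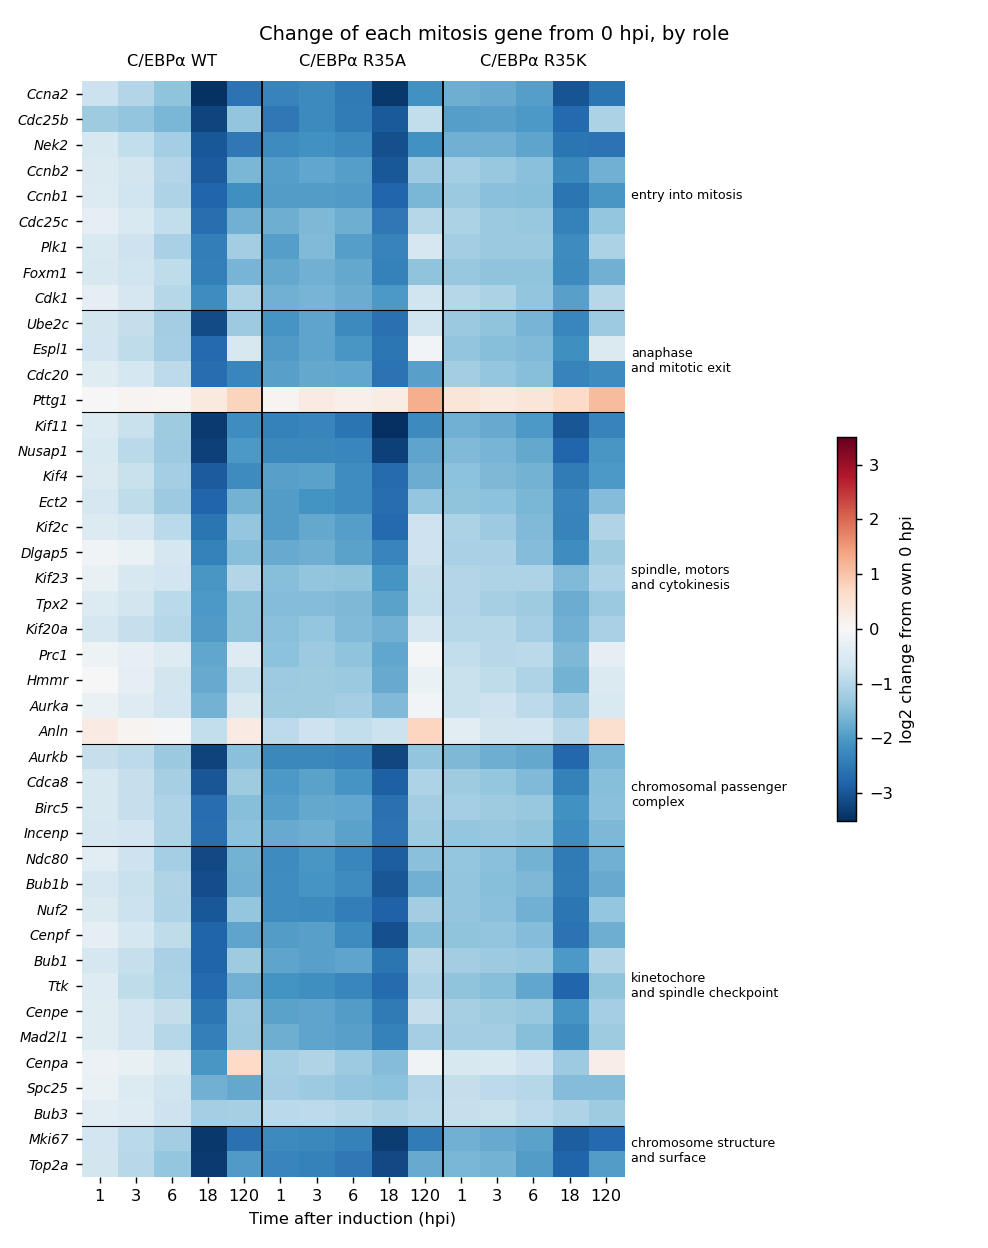
Log2 change from the 0 hpi level of the same construct (colour, blue lower and red higher) for each of the 43 mitosis genes (rows, grouped by role) over the 5 later timepoints in C/EBPα WT, R35A and R35K cells. WT columns darken step by step to 18 hpi, R35A columns are dark from 1 hpi on, and Pttg1 is the only row with no blue at 18 hpi.

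At 18 hpi the constructs were close together. R35A differed from wild type in no called member, where 10.1% of all genes were called in either direction, with a median log2 difference of 0.01. Nor was any called by DESeq2 or limma, 9 had an unadjusted p under 0.05, and by adjusted p alone 2 were lower and 6 higher. In the change from 0 hpi the count was also 0 (8.36% of all genes), with 9 at an unadjusted p under 0.05, none by DESeq2 or limma and 5 higher by adjusted p alone. The shares of all genes under unadjusted p or adjusted p alone were not counted here, so nothing is read from these numbers. Of 12 feeder markers 5 were lower and 2 higher in this change. R35K cells were less reduced than wild-type cells at 18 hpi in 9 members (8.91% of all genes): Ccnb2, Bub1, Bub1b, Cenpa, Birc5, Ube2c, Ndc80, Espl1 and Cdca8. By adjusted p alone 31 were higher (18.6% of all genes), and the median log2 difference was 0.43. In this comparison 9 of 12 feeder markers were lower and none was higher (median log2 difference -0.84), and their part in this result was not tested. For Ccnb2, whose libraries held 13.7 and 13.4 CPM in wild-type, 12.5 and 12.8 in R35A and 23.0 and 20.5 in R35K cells at 18 hpi, the difference was called against wild type (log2 0.70, SE 0.102, edgeR adjusted p = 1.09e-07). Against R35A it was the 1 member called (2.26% of all genes), with log2 0.74, and leaving out R35A 18 hpi replicate 1 gave 5 members. The count of 1 is near the share of all genes, so nothing is read from it. With DESeq2's size factors the 9 became 5, and the share of higher among all called genes moved from 66.8% to 52.8%.

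Between 18 and 120 hpi most of the group came back in part. Called higher were 37 members in wild-type (27.5% of all genes), 41 in R35A (24.5%) and 29 in R35K cells (24.7%), with median log2 changes of 1.11, 1.41 and 0.80. By role, 8 of 9 genes of mitotic entry, 9 of 11 of the kinetochore and checkpoint, 4 of 4 of the passenger complex, 12 of 13 of the spindle and cytokinesis, 2 of 4 of anaphase and 2 of 2 of the chromosome rose in wild-type cells. Those that did not pass were Cdc20, Bub3, Kif20a, Nek2, Spc25 and Pttg1. Scaled by total counts alone, the members higher were 32, 40 and 20 and the share of higher among all called genes moved from 45.5% to 34.9%, from 45.5% to 33.7% and from 46.4% to 32.6%.

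At 120 hpi the members still lay mostly below 0 hpi. Relative to its start Mki67 was the lowest member in all 3 constructs (18.0% in wild-type, 19.8% in R35A and 16.3% in R35K cells), and Pttg1 was the highest (187%, 261% and 231%). The largest falls in wild-type cells were those of Mki67 (log2 -2.60, SE 0.0388, edgeR adjusted p = 2.52e-47), Ccna2 (log2 -2.57, SE 0.047, edgeR adjusted p = 2.19e-43) and Nek2, a centrosomal kinase (log2 -2.49, SE 0.0731, edgeR adjusted p = 3.22e-34). Nek2 went from 87.5 and 86.3 CPM (0 hpi) to 11.2 and 11.2 (18 hpi) and 15.7 and 18.16 CPM (120 hpi) in wild-type cells. Higher than at 0 hpi were 2 members in wild-type cells, Cenpa and Pttg1 (23.1% of all genes), 2 in R35A cells, Anln and Pttg1 (24.2%), and 1 in R35K cells, Pttg1 (25.4%). Not called in either direction were Aurka, Prc1, Anln and Espl1 in wild-type cells, Aurka, Cenpa, Kif20a, Prc1, Hmmr and Espl1 in R35A cells, and Aurka, Cenpa, Prc1, Anln, Hmmr and Espl1 in R35K cells. The median log2 change of all genes was -0.36, -0.31 and -0.28 in the 3 constructs at this timepoint, against -1.43, -1.07 and -1.36 for the members. Scaling by total counts alone took the share of higher among all called genes from 38.3% to 27.8% in R35A and from 39.7% to 28.7% in R35K cells, with 36 and 40 members lower, and it left 0, 1 and 1 members higher in wild-type, R35A and R35K cells. DESeq2's size factors gave 2 higher in each construct.

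R35A cells at 120 hpi were somewhat above wild-type cells. Of 12 markers of feeder fibroblasts, 9 were also higher and 1 was lower in R35A cells there (median log2 difference 1.48), and their part in this result was not tested. Both R35A libraries lay above both wild-type libraries for 32 of 43 members, where 36.6% of all genes did so, and by adjusted p alone 32 members were higher (27% of all genes), with a median log2 difference of 0.33 against 0.05 for all genes. With the 1.5-fold 4 members were higher, Cdc25c, Kif20a, Spc25 and Dlgap5 (12.4% of all genes), and 1 was lower, Cenpa (6.38%). Both are smaller shares than those of all genes, so nothing is read from these counts. With a 2-fold threshold 0 members were higher. Dlgap5, a protein of spindle fibres near the kinetochore, held 22.6 and 25.5 CPM in wild-type and 40.5 and 40.6 CPM in R35A libraries (log2 0.76, SE 0.0804, edgeR adjusted p = 1.49e-11). Kif20a held 32.2 and 33.4 CPM and 53.1 and 55.0 CPM (log2 0.73, SE 0.0664, edgeR adjusted p = 1.5e-13), and Spc25 14.0 and 14.5 CPM and 22.4 and 23.0 CPM, with a difference of log2 0.68 (SE 0.0999, edgeR adjusted p = 9.11e-08). In none of these did the libraries of the 2 constructs overlap. Cdc25c, at log2 0.61, was not called by DESeq2 or limma.

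In the change from 0 hpi, R35A exceeded wild type at 120 hpi in 7 members (9.85% of all genes), Cdc25c, Plk1, Ttk, Kif20a, Kif2c, Spc25 and Dlgap5, and was below it in 1, Cenpa (4.63%). R35K and wild-type cells differed in no member (10.1% of all genes in either direction), nor by DESeq2 or limma, with 11 members at an unadjusted p under 0.05. Of 12 feeder markers 8 were higher and 1 was lower in R35K than in wild-type cells in this change. Between R35K and R35A cells no member was called (1.61% of all genes), none by DESeq2 or limma, though 37 had an unadjusted p under 0.05 and 26 were lower in R35K cells by adjusted p alone, with a median log2 difference of -0.29. For all genes the shares under unadjusted p or adjusted p alone were not counted at 120 hpi in these changes, so nothing is read from such numbers.

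**Figure D5:**
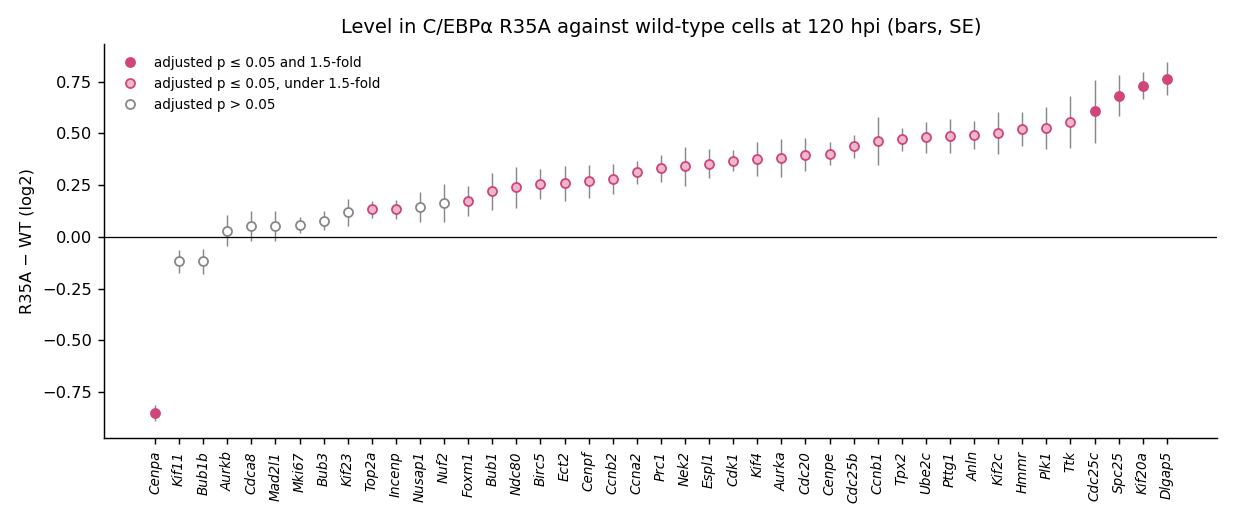
Log2 difference, R35A minus wild type, at 120 hpi for each mitosis gene, ordered by size, with bars for the SE (2 libraries a group) and fill by whether adjusted p and the 1.5-fold were passed. Values run from -0.85 for Cenpa to 0.76 for Dlgap5, with 4 genes called higher and 1 lower.

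Markers of other cells moved with the course as well. The summed level of 12 feeder fibroblast markers was 7072 CPM (0 hpi), 13284 (1 hpi), 18145 (18 hpi) and 17645 CPM (120 hpi) in wild-type cells. In R35A cells it was 7350, 14454, 12645 and 6155 CPM, and in R35K cells 7233, 10081, 9300 and 7426 CPM. All 12 were called higher at 1 hpi in wild-type and 9 in R35A cells, and their change over the first hour differed between these constructs in 1 gene, Dcn, where 41 mitosis genes differed. Thbs1 made up 98.5% of the wild-type sum at 120 hpi, 86.8% of the R35A and 91.6% of the R35K sum, and the other 11 genes, set apart after their values were seen, summed to 264, 813 and 621 CPM there, with Lum at 0 in all 3. The part of feeder RNA in the levels of the mitosis genes was not tested. The B cell markers moved in the same order as the mitosis genes over the first hour, to 46.0% of the start in wild-type, 26.1% in R35K and 15.2% in R35A cells, while the macrophage sum was 878 CPM in wild-type, 3805 in R35A and 8112 CPM in R35K cells at 1 hpi.

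Further mitotic genes took a like course. Of 84 symbols chosen as kinetochore, condensin, centrosome and late cell cycle genes, 81 were found in the tables. This list, too, was chosen with earlier results of these data known. In wild-type cells 21 were lower after 1 h (9.27% of all genes), 75 after 18 h (23.2%) and 74 after 120 h (40.2%). In the change over the first hour 67 were lower in R35A (8.74% of all genes) and 52 in R35K (5.08%) than in wild-type cells. The median log2 differences were -1.22 and -0.66. The largest R35A differences were those of Depdc1b (log2 -1.96, SE 0.175, edgeR adjusted p = 1.76e-13), Ska1, of the kinetochore's microtubule-tracking complex (log2 -1.78), and Spc24, another part of the Ndc80 complex (log2 -1.67). The largest wild-type falls at 120 hpi were in Esco2, which acetylates cohesin (log2 -3.47), Cenpn (-2.94) and Gtse1 (-2.84). R35A cells exceeded wild type at 120 hpi in 6 of the 81, a smaller share than the 12.4% of all genes, and the largest differences were in Gtse1 (log2 1.24, SE 0.0725, edgeR adjusted p = 1.89e-20), Ckap2 (log2 1.07) and Cenpm (log2 0.93).

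Genes of the APC/C itself were also counted. Of 17 genes of its subunits and partners 6 were lower in wild-type cells at 18 hpi (23.2% of all genes were), with a median log2 change of -0.30. Over the first hour 2 of 17 fell more in R35A cells, where 8.74% of all genes did, so that nothing is read from this count: Fbxo5 (log2 -1.65, SE 0.089, edgeR adjusted p = 1.96e-21), the inhibitor of the APC/C, and Ube2s (log2 -0.63). At 120 hpi 10 were lower in wild-type cells (40.2% of all genes) and 1 higher (23.1%). Fbxo5 fell by 4.27 on the log2 scale, followed by Cdc27 (-1.24) and Anapc5 (-0.97), and Anapc11 rose by log2 1.00. Their summed level stayed at 82.5% of its 0 hpi value in wild-type and 72.2% in R35A cells at 1 hpi.

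Among 23 regulators of mitotic promoters, 16 were lower (23.2% of all genes) and 1 higher (4057 of 16988 genes) in wild-type cells at 18 hpi. Over the first hour 9 fell more in R35A cells (8.74% of all genes, median log2 difference -0.51). These were led by E2f7 (log2 -1.40), a repressor of the E2F family, Mybl2 (-1.38), the MYB of MYB-MuvB, and Rbl1 (-1.29), which encodes p107. At 120 hpi E2f7 (-3.27), Mybl2 (-3.12) and Tfdp2 (-2.44) had the largest wild-type falls, and Rbl2, which encodes the p130 of DREAM, rose (log2 0.76, SE 0.0528, edgeR adjusted p = 2.06e-18). The median log2 change of the 23 in wild-type cells at 18 hpi was -0.95, against -2.68 for the mitosis genes, while their summed level, which the abundant members set, was 93.4% of its start, against 15.4%.

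Genes of DNA replication, which act in S phase before mitosis, were mostly called at 1 hpi already. In wild-type cells 42 of 49 were lower (9.27% of all genes, median log2 change -0.82), against 9 of 43 mitosis genes (-0.48). At 18 hpi all 49 were lower (23.2% of all genes). The difference between the lists was not tested. Over the first hour 43 of 49 fell more in R35A than in wild-type cells (8.74% of all genes, median log2 difference -1.06). The largest differences were those of Mcm5 (log2 -1.52, SE 0.0536, edgeR adjusted p = 6.11e-29), a part of the replicative helicase, Cdc45 (log2 -1.52) and Prim1 (log2 -1.51). The summed level of the 49 genes at 1 hpi was 53.8% of the start in wild-type, 35.2% in R35K and 26.8% in R35A cells. At 120 hpi Dtl (log2 -3.60), Cdc6 (-3.56) and Uhrf1 (-3.44) had the largest wild-type falls, and R35A cells were above wild type in 4 of 49 genes (12.4% of all genes were), among them Gins3 (0.78), Cdc6 (0.68) and Ccne1 (0.68), and below it in Cdt1 (log2 -0.63).

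Members with and without the promoter letters were set side by side. The median first-hour log2 difference between R35A and wild-type cells was -1.38 for the 24 members with both a CHR and CCAAT, -1.47 for the 3 with a CHR alone (Anln, Kif2c and Ndc80), -1.49 for the 3 with CCAAT alone (Ccnb1, Cenpe and Nek2), and -1.37 for the 5 with neither (Birc5, Mad2l1, Nuf2, Nusap1 and Pttg1). The medians of the wild-type change at 120 hpi were log2 -1.32, -1.34, -2.14 and -1.34 in the same order. Of the 5 with neither, Pttg1 alone was not called, and the other four were all called lower. Kif11 and Cenpa, both with a CHR and CCAAT in the windows printed above, lay at log2 -1.90 and -0.96. The windows of Kif2c, Pttg1, Cdca8 and Kif4 lie inside the gene in the GENCODE annotation, and that of Mad2l1 lies before it. All of these miss the start there, so their class rests on the RefSeq start. No test was run on these small classes.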

How the data were processed

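RNA-seq of 36 libraries (3 constructs, 6 timepoints, 2 replicates in each of 18 groups) was analysed. The authors deposited counts of reads per gene, not normalized, and log2 normalized values, with tables of their own for R35K. According to the methods and the submitters' processing notes, stranded libraries of polyadenylated RNA were checked with FastQC, aligned to mm10 and counted with STAR 2.5.0a and normalized with DESeq2 1.14.1. The annotation release and the strand setting of the counts are not given in the sources used here. The deposited log2 values were recovered from the counts as log2 of the count over a size factor plus 1, within 5.15e-14, and served for one alternative. Every column was matched to a sample by its name, and 0 columns were left unused.

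Counts were fitted with edgeR 4.0.16 (TMM, filterByExpr, quasi-likelihood F tests) in R 4.3.3 over the 24 wild-type and R35A libraries (16988 genes), the 12 R35K libraries (16434) and all 36 (17277, for differences between R35K and the others in the change from 0 hpi). A gene was called at a change of at least 1.5-fold (log2 0.58) and an adjusted p (Benjamini-Hochberg, over all genes tested) no higher than 0.05. SEs were derived from the F statistic. CPM use TMM factors over all 36 libraries. Tables and figures used Python 3.11.15, pandas 2.3.3 and matplotlib 3.10.9. The total count per library (13044456 to 23131776, median 15471229.5) sets the precision. The p-values rest on a spread between replicates that is pooled over all groups of a fit, with 2 libraries a group. The median squared difference between replicates was 1.09 to 2.31 times counting noise over the groups. How far this spread covers variation between mice is not known. The procedure was tested on simulated data.

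Alternatives were DESeq2 1.42.0, DESeq2's size factors or total counts as scaling, no low-count filter, unadjusted p, a 2-fold threshold, adjusted p alone, a fit of only the groups compared, a block on the replicate number, limma 3.58.1 on the deposited log2 values, and leaving out each library in turn. Values of single libraries are given for 16 members that stand for a role and for the 3 members with the largest called change in each direction in wild-type cells at 120 hpi, in the first-hour difference between R35A and wild type, and between them at 120 hpi. For most of these members not every timepoint or construct is printed. Further genes named are the 3 largest of each other list in the same comparisons. Other members were named as the text needed. The members and lists were chosen with earlier results of these data known. RefSeq promoters were searched on both strands for CHR, as TTTGAA or as TTCGAA, and for CCAAT.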

Additional observations from a re-analysis of the deposited data

Results flagged for a closer look

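The results named here are those where the change of the mitosis genes from 0 hpi differed between constructs in edgeR's test of that difference itself. Between R35A and wild-type cells 41, 40 and 39 members were lower after 1, 3 and 6 h (8.74%, 7.43% and 5.99% of all genes). At 120 hpi 7 were higher (9.85%) and 1, Cenpa, was lower (4.63%). Between R35K and wild-type cells 33, 22 and 6 were lower after 1, 3 and 6 h (5.08%, 3.87% and 4.53% of all genes). At 18 hpi 9 were higher (8.91%). Between R35K and R35A cells 27, 10 and 12 were higher after 1, 3 and 6 h (4.15%, 2.25% and 4.69% of all genes). At 18 hpi 1 was higher, Ccnb2 (2.26%), a count near the share of all genes from which nothing is read. The B cell markers were lower in the same first-hour comparison of R35A and wild-type cells (8 of 8), 7 of 8 macrophage markers were higher, and 1 of 12 feeder markers was higher. Between R35K and wild-type cells 9 of 12 feeder markers were lower at 6 and at 18 hpi. Their part in these results was not tested.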

How the results depend on the processing

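Of 648 counts of members recomputed under the alternatives, 586 stayed within 1.5 times the reported count and 62 moved further. Of 312 recomputed medians of the members, 152 stayed within an error taken from the replicates and 160 moved further. The largest shift was 0.34 on the log2 scale under another scaling and 0.16 with a library left out. The sign changed for R35A against wild type at 18 hpi and for R35K against wild type in the change to 120 hpi. Of 2536 recomputed changes of single members, 2466 kept their direction and side of the threshold, 70 lost the call and 0 reversed. Only members called in the reported fit were followed here, so no call could be gained. The alternative thresholds reuse that fit and could not reverse a direction, and unadjusted p and adjusted p alone could not lose a call. The choice of the fold threshold moved most counts. With a 2-fold threshold the members below the start in wild-type cells were 1, 2 and 24 after 1, 3 and 6 h, those lower from 6 to 18 hpi were 1 in R35A and 5 in R35K cells, and 13 were higher in R35K cells from 18 to 120 hpi. R35A cells were then lower than wild type in 18 members at 6 hpi (16 in the change from 0 hpi) and higher in 0 at 120 hpi by either comparison. R35K and wild type differed in 2 members at 1 hpi and in 0 at 3, 6 and 18 hpi, and R35K and R35A in 0 at 1, 3, 6 and 18 hpi. By adjusted p alone 39 members were lower in wild-type cells at 1 hpi and 39 in R35A cells from 6 to 18 hpi. R35A and wild type then differed in 8 members at 18 hpi (5 in the change from 0 hpi), and 32 were higher in R35A cells at 120 hpi by either comparison. R35K was then below wild type in 40 members at 3 hpi and 37 at 6 hpi, above it in 31 at 18 hpi, and different in 7 at 120 hpi. Against R35A it was above in 43, 39, 38 and 23 members at 1, 3, 6 and 18 hpi and different in 27 at 120 hpi. For most of these counts by adjusted p alone the share of all genes was not counted, so they are not read as particular to the members.

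Tools and scaling moved fewer. DESeq2, its size factors in edgeR, and limma each gave 7 members in place of 12 for R35K against R35A at 6 hpi and 5 in place of 9 for R35K against wild type at 18 hpi. Without the low-count filter R35A exceeded wild type in the change to 120 hpi in 11 members, and R35K and R35A differed in 7 at 6 hpi and in 2 at 120 hpi. A fit of only the groups compared gave 4 for the first of these and 7 for the second. Total counts alone gave 14 members lower in wild-type cells at 1 hpi, 10 for R35K against wild type and 7 for R35K against R35A at 6 hpi. At 18 hpi in wild-type cells the median log2 change of all genes was 0.02 with TMM and 0.14 with DESeq2's size factors, against -2.68 and -2.56 for the members, and at 120 hpi it was -0.20 with those factors and -0.68 with total counts. Leaving out each library in turn gave 0 to 1 members for R35A against wild type in the change to 18 hpi, 0 to 3 for R35K against R35A at 120 hpi (3 without R35K 120 hpi replicate 1), 1 to 5 at 18 hpi and 3 to 11 for R35K against wild type at 6 hpi.

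Replicate numbers did not pair the samples: over 153 pairs of groups the correlation of replicate differences had a median of -0.01 and exceeded 0.1 in 13. With the replicate number as a block the first-hour count of R35A against wild type was 41 members, and the block moved no count by over 1.5 times. The limits are 2 libraries a group, one scale for RNA of cells whose total RNA was not measured, and no sequencing batch in the labels. A further limit is that no group was kept without E2 along the course, while growth factors in the medium changed. At the lowest count of a member, 42 reads, counting error alone is larger than the median replicate difference.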
